A study of Homo sapiens with 8 samples.

Results

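The human major histocompatibility complex (MHC) was described here through 670 windows of 5 kb on chromosome 6 (GRCh37), of 607248 such windows on chromosomes 1 to 22 and X. The windows were chosen by position alone: 360 in class I (chr6:29550001-31350000), 160 in class III (chr6:31500001-32300000) and 150 in class II (chr6:32350001-33100000). Inside class I, 21 windows make up a broad domain (chr6:30350001-30455000), which was picked out because it was seen to be covered in these data, so its high coverage is a description. The study mapped H3K27me3 by chromatin immunoprecipitation and sequencing in MOLM14, a single established human acute myeloid leukaemia line whose FLT3 receptor kinase carries an internal tandem duplication. Cells had received AC220 (quizartinib, an inhibitor of FLT3) or its solvent DMSO for 24 h, and Drosophila S2 cells had been added to all of them before lysis. The 8 samples comprise 4 inputs, whose values were not analysed here, and 4 H3K27me3 libraries with 1 deposited peak list each, named DMSO 1 and DMSO 2, AC220 1 and AC220 2. Nothing in the labels says that libraries of a treatment came from separate cultures, so the exact p-values below measure the spread between these libraries alone, and that spread may be technical.

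H3K27me3 is written by the Polycomb complex PRC2 and marks genes that are kept silent, often as domains of many kilobases. The class I region encodes the chains that present peptides from inside the cell to cytotoxic T cells and the non-classical HLA-E, HLA-F and HLA-G, among many unrelated genes. The class II region encodes the chains that myeloid and B cells use to present engulfed antigen (HLA-DR, HLA-DQ and HLA-DP) together with the peptide transporter genes TAP1 and TAP2. Class III, between them, is a gene-dense stretch with complement genes, the tumour necrosis factor genes and many housekeeping genes. Gene names beside an interval below are background from textbook maps of the MHC. No annotation of this build was used, so overlap of peaks with genes was not computed. All 64 genes listed for these regions were found in the RefSeq table at hand (GRCh38.p14), which was used for their order along the chromosome alone.

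The measure is the covered share: the percentage of bases of a region or window that lie inside any deposited peak of a library. It says where peaks were called, not how much mark each cell carried. The lists of the libraries numbered 2 (set 2) were far longer than those numbered 1 (set 1). Over chromosomes 1 to 22 and X, peaks covered 7.63% of bases for DMSO 1 and 6.32% for AC220 1, against 19.4% for DMSO 2 and 16.3% for AC220 2. Values are therefore given within each set, and read depth is unknown because the lists hold no counts.

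Class I was the most covered class in every library, class II the next and class III the least. In class I the covered share was 38.2% in DMSO 1, 36.6% in AC220 1, 52.8% in DMSO 2 and 53.1% in AC220 2. The set 1 libraries lay together and below those of set 2, and the treatments overlapped. In class II it was 20.9% in DMSO 1, 16.6% in AC220 1, 49.3% in DMSO 2 and 43.1% in AC220 2, so this class nearly reached class I in set 2 but not in set 1. In class III it was 15.4% in DMSO 1, 14.4% in AC220 1, 24.3% in DMSO 2 and 26.0% in AC220 2. The share of class III was 0.402, 0.459, 0.393 and 0.490 times that of class I in DMSO 1, DMSO 2, AC220 1 and AC220 2, a mean log2 ratio of -1.20 ± 0.15 (SD, n = 4 libraries). Class II over class I gave a mean log2 ratio of -0.60 ± 0.49 (SD, n = 4) and class II over class III gave 0.60 ± 0.35 (SD, n = 4). Each of the 3 ratios had 1 sign in 4 of 4 libraries, with a p of 0.13 in an exact sign-flip test, two-sided, which is the smallest that 4 libraries allow. With peaks limited to a -log10 q of at least 2, class II was below class III in DMSO 1 (6.26% and 7.45%) and above it in AC220 1 (6.59% and 5.44%), DMSO 2 (42.2% and 22.1%) and AC220 2 (33.7% and 24.6%).

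**Figure D1:**
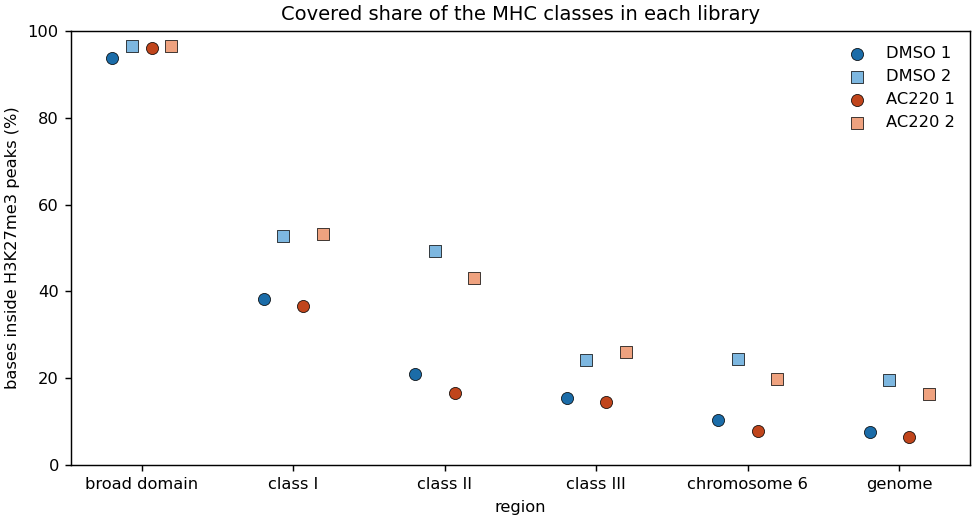
Covered share in percent (y axis) of the broad domain, each MHC class, chromosome 6 and the genome (chromosomes 1 to 22 and X) in each library; circles are set 1 and squares set 2, blue DMSO and orange AC220. Class I lies above class II and class II above class III in all 4 libraries, and the domain lies above 93% in each.

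Set beside its surroundings, the MHC was rich in this mark. Chromosome 6 as a whole was covered over 10.4% in DMSO 1, 7.73% in AC220 1, 24.4% in DMSO 2 and 19.8% in AC220 2. Class I exceeded the genome share 5.01-fold in DMSO 1, 5.80-fold in AC220 1, 2.72-fold in DMSO 2 and 3.25-fold in AC220 2. Class II exceeded it by nearly the same factor in every library, 2.73-fold in DMSO 1, 2.54-fold in DMSO 2, 2.63-fold in AC220 1 and 2.64-fold in AC220 2. Class III exceeded it least, 2.02-fold in DMSO 1, 1.25-fold in DMSO 2, 2.28-fold in AC220 1 and 1.59-fold in AC220 2. In DMSO 2 class III did not exceed chromosome 6 (0.993-fold). From set 1 to set 2 the class I share grew 1.38-fold with DMSO and 1.45-fold with AC220, where the genome grew 2.55-fold and 2.59-fold. Class II grew like the genome, 2.37-fold and 2.59-fold, and class III lay between, at 1.58-fold and 1.80-fold. A share has an upper limit, so the fold growth of a region depends on where it started. In set 1 class I stood at 38.2% (DMSO) and 36.6% (AC220), and the genome at 7.63% and 6.32%.

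Within class I, windows were mostly either well covered or empty. Of its 360 windows, 116 (32.2%) were covered over at least 50% of their length in all 4 libraries, where 3.83% of all windows in the genome were. No covered base was found in any library in 124 class I windows (34.4%), against 64.6% of all windows. In class II 13 of 150 windows (8.67%) were covered over at least 50% in all libraries and 36 (24.0%) had no covered base in any. In class III these were 15 of 160 (9.38%) and 101 (63.1%), so its share of empty windows was near that of the genome. Windows covered from end to end in all 4 libraries numbered 49 in class I, 3 in class III and 0 in class II. Windows with peaks in both set 2 libraries and no covered base in set 1 made up 8% of class II, beside 7.23% of all windows. They made up 3.33% of class I and 1.88% of class III. No MHC window showed the reverse, which was found in 0.0107% of all windows.

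**Figure D2:**
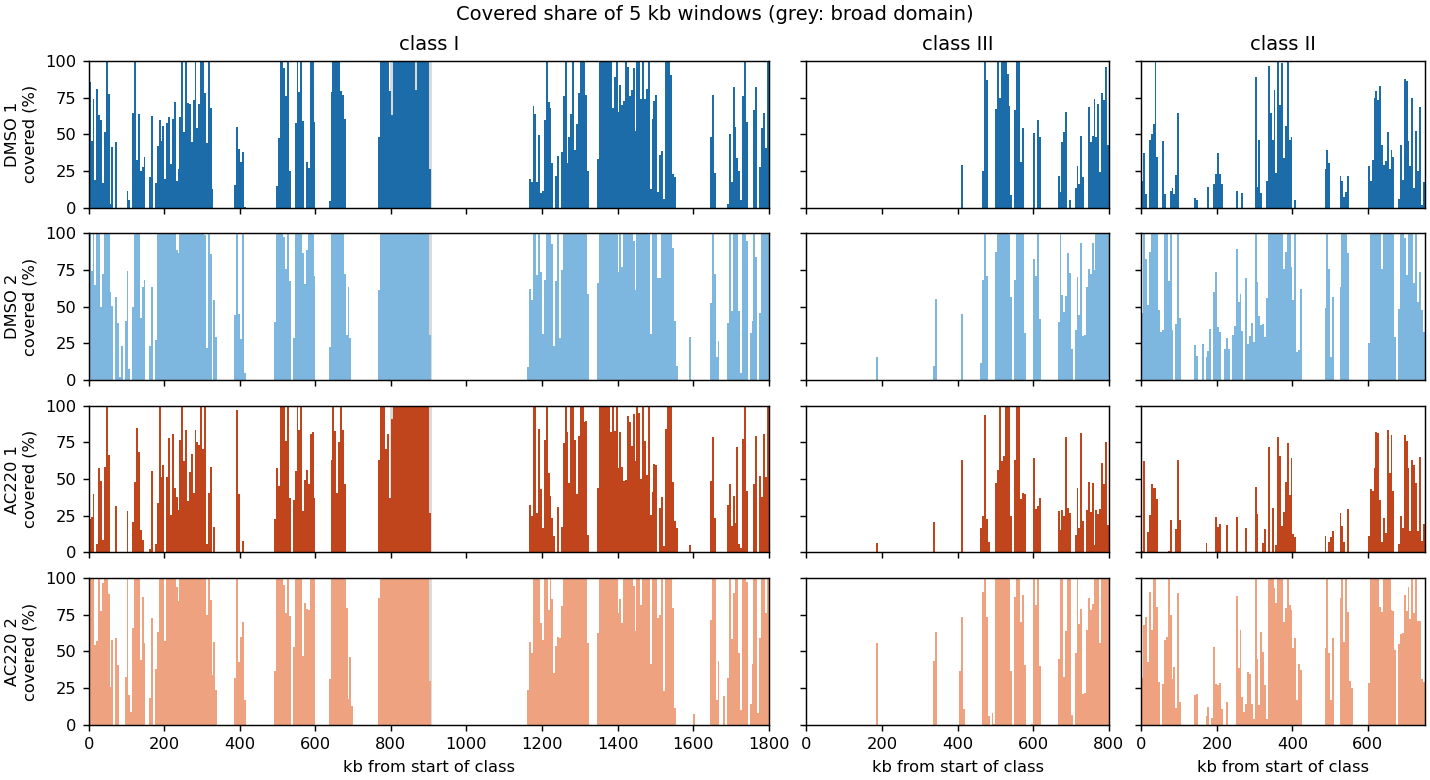
Covered share in percent (y axis) of every 5 kb window along class I, class III and class II (x axis, kb from the start of each class), 1 row per library; the grey band behind the bars is the broad domain. Class I alternates between filled blocks and empty stretches of up to 255 kb, the first part of class III is nearly empty, and class II is filled more in set 2 than in set 1.

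The same contrast appeared in the peaks themselves. Peaks of at least 10 kb held 56.4% (DMSO) and 45.8% (AC220) of the class I peak length in set 1, against 87.3% (DMSO) and 87.5% (AC220) in set 2. Class II had no peak that broad in either set 1 library, and its 9 broad peaks held 62.4% of its peak length in DMSO 2 and 46.9% (also 9 peaks) in AC220 2. For class III the values were 39.2% (DMSO) and 26.8% (AC220) in set 1, against 70.2% and 70.9% in set 2. The fold enrichment and -log10 q of a peak are the authors' values for it within its own list. The highest -log10 q of class I was 7.07 in DMSO 1, 6.14 in AC220 1, 15.5 in DMSO 2 and 11.99 in AC220 2. Class II reached 2.77, 3.72, 4.06 and 6.92 in the same order, and class III 3.10, 4.23, 6.45 and 5.71. With peaks limited to a -log10 q of at least 5, class II kept no covered base in DMSO 1, AC220 1 and DMSO 2 and 0.818% in AC220 2, while class I kept 34.3% in DMSO 2 and 31.1% in AC220 2. In set 1 class I then kept 1.78% with DMSO and 5.99% with AC220. Most of this lay in the broad domain, which kept 30.5% with DMSO and 96.1% with AC220 in that set.

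The broad domain was the longest filled stretch of the MHC and was present under both treatments. It was covered over 93.8% in DMSO 1, 96.1% in AC220 1, 96.7% in DMSO 2 and 96.7% in AC220 2, and 93.4% of its bases lay in peaks of all 4 libraries. In AC220 1 a peak of 101 kb (chr6:30350462-30451348) filled it, the widest of the 104566 peaks in that list, with a fold enrichment of 3.92. In DMSO 1 it was called mainly as a peak of 66.0 kb (chr6:30352235-30418271, fold 3.93) and one of 32.1 kb (chr6:30419255-30451318, fold 4.72), which ranked 7 and 94 by width among 104980. In DMSO 2 a peak of 134 kb (chr6:30317918-30451539, fold 4.30) and in AC220 2 one of 136 kb (chr6:30315665-30451492, fold 4.13) ran through it from the neighbouring stretch, and ranked 30 of 117556 and 10 of 139642 by width. These set 2 peaks ranked 45 and 41 by q in their lists, and the 32.1 kb peak of DMSO 1 ranked 46. In set 1 the stretch just before the domain was called as separate, weaker peaks, of which the widest had a fold of 2.98 (28.1 kb) in DMSO 1 and 3.08 (21.2 kb) in AC220 1.

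**Figure D3:**
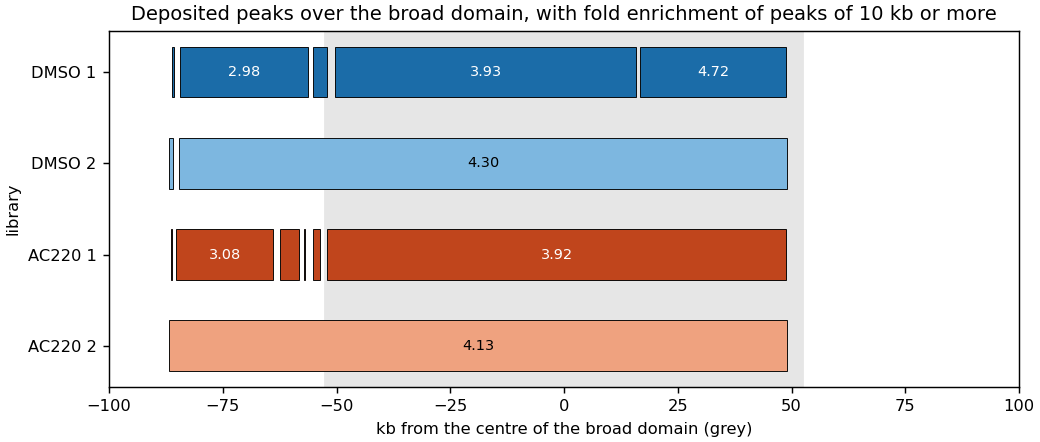
Deposited peaks (bars) of each library over the broad domain and the stretch before it (x axis, kb from the centre of the domain; grey, the domain; y axis, library), with the fold enrichment written on peaks of at least 10 kb. The right ends of all 4 libraries lie within 221 bp of each other, and the set 2 libraries join the domain to the stretch before it.

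The edges of the domain differed. Its right edge was sharp: the last peaks ended between positions 30451318 and 30451539, a spread of 221 bp over 4 libraries. Beyond it no peak was called for 264 kb in DMSO 1, 263 kb in DMSO 2, 264 kb in AC220 1 and 262 kb in AC220 2. The 100 kb after the domain therefore had a covered share of 0 in every library, where the 100 kb before it had 31.4% in DMSO 1, 27.5% in AC220 1, 33.1% in DMSO 2 and 34.3% in AC220 2. On textbook maps the domain lies between RPP21, which encodes a ribonuclease P subunit, and HLA-E, whose product presents signal peptides of other class I chains to natural killer cells. In the RefSeq order RPP21 and HLA-E are neighbours among the listed genes. The empty stretch of 255 kb that follows (51 windows, chr6:30455001-30710000) is the longest in the MHC classes and, on the same maps, holds HLA-E and widely expressed genes such as MDC1, a DNA damage mediator, and TUBB, a tubulin.

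Class I held 35 runs of windows covered over at least 50% in all 4 libraries, of which the domain was the longest. The next was of 65 kb (chr6:30900001-30965000), at 90.4% in DMSO 1, 89.5% in AC220 1, 96.2% in DMSO 2 and 94.7% in AC220 2; textbook maps place mucin genes of epithelia there. One of 35 kb followed nearby (chr6:30975001-31010000), at 85.7%, 86.7%, 93.8% and 94.0% in the same order. A run of 30 kb (chr6:29830001-29860000) lay beyond HLA-G, the class I gene of the placenta, and was covered over 83.8% in both set 1 libraries, 99.9% in DMSO 2 and 100% in AC220 2. A run of 25 kb (chr6:30055001-30080000) near TRIM31, which encodes a ubiquitin ligase, was covered over 94.3%, 95.2%, 94.7% and 94.3% in DMSO 1, AC220 1, DMSO 2 and AC220 2. All 5 of the longest class I runs were covered over more than 80% of their length in each library. Since runs were chosen for windows covered over at least 50% in all 4 libraries, this is a description. Empty runs after the 255 kb one included those of 75 kb (chr6:29965001-30040000), 65 kb (chr6:30250001-30315000) and 40 kb (chr6:31155001-31195000).

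Class III was divided along its length. Its telomeric part (the first 400 kb) had a covered share of 0 in DMSO 1, 0.338% in AC220 1, 1.00% in DMSO 2 and 2.04% in AC220 2, and its centromeric part 30.8%, 28.5%, 47.5% and 49.98% in the same order. This dividing point is the midpoint of the class and was chosen after the map had been seen. Empty runs of 185 kb (chr6:31500001-31685000) and 145 kb (chr6:31690001-31835000) filled most of the first part, where textbook maps place the cytokine genes LTA, TNF and LTB and the chaperone genes HSPA1A and HSPA1B. In the second part the longest covered run was of 35 kb (chr6:32005001-32040000), at 90.7% in DMSO 1, 83.4% in AC220 1 and 100% in both set 2 libraries. A run of 15 kb followed (chr6:32050001-32065000), at 88.9%, 87.7%, 89.4% and 95.7% in DMSO 1, AC220 1, DMSO 2 and AC220 2. Both lie where maps show TNXB, an extracellular matrix gene. Runs of 1 window followed in length, at chr6:31970001-31975000 (93.4% in AC220 1 and 100% in the other libraries), chr6:32100001-32105000 (50.8% in DMSO 1 to 100% in AC220 2) and chr6:32185001-32190000 (57.1% in DMSO 2 to 78.5% in AC220 1). Further empty runs were of 60 kb (chr6:31845001-31905000), 45 kb (chr6:32120001-32165000) and 40 kb (chr6:31920001-31960000). The widest class III peak was of 21.8 kb in DMSO 1, 15.8 kb in AC220 1, 64.3 kb in DMSO 2 and 40.8 kb in AC220 2. Coverage went on beyond the class limit: the 50 kb between class III and class II, which belong to no class here, were covered over 40.9% in DMSO 1, 50.8% in AC220 1, 88.9% in DMSO 2 and 90.1% in AC220 2.

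Class II held short covered runs. The longest was of 15 kb (chr6:32965001-32980000), at 75.9% in DMSO 1, 73.7% in AC220 1 and 100% in both set 2 libraries, where maps show HLA-DOA, whose product tempers peptide loading. One of 10 kb (chr6:32710001-32720000), near HLA-DQA2 on the same maps, had 85.1%, 72.5%, 100% and 100% in DMSO 1, AC220 1, DMSO 2 and AC220 2. Another of 10 kb (chr6:33045001-33055000), near HLA-DPB1, which encodes an HLA-DP chain, had 87.4%, 78.0%, 84.3% and 83.3%. Runs of 1 window came next, at chr6:32445001-32450000 (63.3% in AC220 1 to 100% in DMSO 2) and chr6:32685001-32690000 (71.8% in AC220 1 to 100% in set 2). The widest class II peak was of 9.46 kb in DMSO 1, 6.88 kb in AC220 1, 46.6 kb in DMSO 2 and 28.9 kb in AC220 2. Empty runs were of 60 kb (chr6:32775001-32835000), where maps place TAP1, TAP2 and the immunoproteasome genes PSMB8 and PSMB9, of 40 kb (chr6:32910001-32950000), of 35 kb (chr6:32455001-32490000), of 15 kb (chr6:32860001-32875000) and of 10 kb (chr6:32500001-32510000). Antigen processing genes thus lay, on maps, in a stretch without a peak in any library.

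By Pearson's r, window profiles differed between libraries least in class I and most in class II. Pearson's r of covered share across windows between DMSO 1 and AC220 1 was 0.92 in class I (360 windows), 0.88 in class III (160) and 0.78 in class II (150). Between DMSO 2 and AC220 2 it was 0.97, 0.97 and 0.92. Windows of a library share their list and are not independent, so these are descriptions. Of the bases covered in any library, 55.4% were covered in all 4 in class I, 35.4% in class III and 18.9% in class II. Bases in peaks of both DMSO libraries and of neither AC220 library came to 0.257% of class I, 0.0919% of class III and 0.961% of class II, and the reverse to 0.226%, 0.3995% and 0.126%. None of these base shares was computed over chromosome 6 or the genome, so they cannot be called particular to a class.

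Between treatments, class II was covered less with AC220 in both sets, and classes I and III had no common direction. In class II the share was 20.2% lower with AC220 in set 1 and 12.6% lower in set 2, log2 ratios of -0.33 and -0.19. In class I the log2 ratios were -0.06 and 0.01, and in class III -0.09 and 0.10. The genome gave -0.27 and -0.25 and chromosome 6 gave -0.43 and -0.30. Pooled over sets, class II measured 35.1% ± 20.1 with DMSO and 29.9% ± 18.7 with AC220 (SD, n = 2 each), a log2 ratio of -0.26 with p = 0.667 in the exact permutation test, two-sided. That equals the pooled log2 ratio of the genome (-0.26). Class I measured 45.5% ± 10.3 and 44.9% ± 11.6 (log2 ratio -0.03, exact permutation p = 1; SD, n = 2 each). Class III measured 19.8% ± 6.28 and 20.2% ± 8.20 (log2 ratio 0.004, exact permutation p = 1; SD, n = 2 each), and the broad domain 95.3% ± 2.05 and 96.4% ± 0.407 (log2 ratio 0.02, exact permutation p = 1; SD, n = 2 each). For the classes, none of these differences exceeded the spread between libraries of a treatment. For the domain the difference was below the SD of DMSO (2.05) and above that of AC220 (0.407). Each set holds 1 library of each treatment, so this spread cannot be told apart from the gap between the sets. Besides, 2 libraries against 2 cannot give a p below 0.333. Within sets, where that gap is absent, the AC220 minus DMSO difference of class II was -4.22 points in set 1 and -6.22 points in set 2. An exact sign-flip test over 2 sets cannot give a p below 0.5, so that common direction could not be tested further. The domain was picked because it was seen to be covered in these data, and peaks of any library reached 96.7% of its bases. Its share over all peaks thus had little room to differ, so its test cannot decide on a treatment difference. With peaks limited to a -log10 q of at least 5, the domain kept 30.5% for DMSO 1 and 96.1% for AC220 1, against 96.7% for both set 2 libraries, and its pooled log2 ratio was 0.83. Without DMSO 2 the class II log2 ratio was 0.36 and without AC220 1 it was 0.43, both leaving the sets unbalanced.

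**Figure D4:**
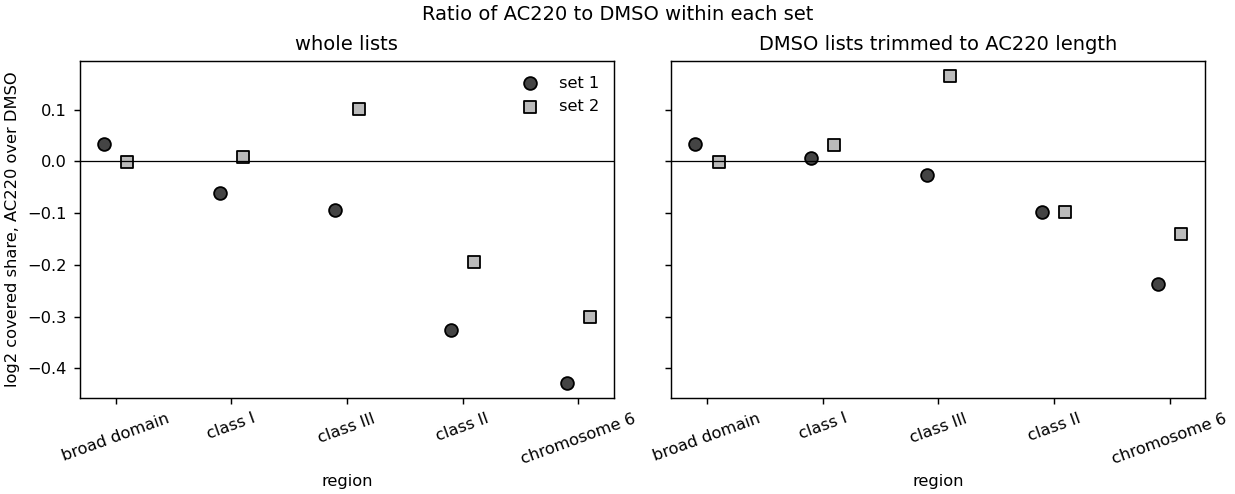
Log2 ratio of AC220 to DMSO covered share (y axis) within set 1 (circles) and set 2 (squares) for the broad domain, each class and chromosome 6, from whole lists (left) and with each DMSO list trimmed to the covered length of its AC220 list (right). Class II is below 0 in both sets in both panels (-0.10 and -0.10 after trimming), while class I moves to just above 0 after trimming.

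The differences between classes were themselves tested. The class I treatment log2 ratio exceeded that of class II by 0.23 (exact permutation test, two-sided, p = 0.667) and differed from that of class III by -0.03 (exact permutation p = 1). The class II ratio differed from that of class III by -0.26 (exact permutation p = 0.667). Since each AC220 list covered fewer bases than the DMSO list of its set, each DMSO list was also trimmed to the covered length of its AC220 list by keeping the peaks with the highest -log10 q. Class II then had log2 ratios of -0.10 and -0.10, class I 0.01 and 0.03, class III -0.03 and 0.16, and chromosome 6 -0.24 and -0.14. Class II thus stayed lower with AC220 in both sets, by less than chromosome 6 as a whole. Trimming removes DMSO coverage alone. With peaks limited to a -log10 q of at least 2, however, class II had log2 ratios of 0.07 in set 1 (6.26% with DMSO and 6.59% with AC220) and -0.33 in set 2, so its common direction was lost.

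In steps of 50 kb, both sets were lower with AC220 at 8 of 15 class II steps and higher at 0, where 39.5% of the 35541 steps in the genome with a covered base in any library were lower and 9.46% higher. Of such steps in class I 5 of 31 were lower and 5 higher in both sets, and in class III 2 of 10 were lower and 6 higher. The class II steps with the largest differences in set 1 adjoined each other. In the first (chr6:32650001-32700000) the share was 38.5% in DMSO 1, 19.5% in AC220 1, 67.2% in DMSO 2 and 60.2% in AC220 2. In the second (chr6:32700001-32750000) it was 65.7%, 42.1%, 94.0% and 88.6% in the same order. On textbook maps these steps run from beyond HLA-DQB1 through HLA-DQA2 and HLA-DQB2. The first step of class II (chr6:32350001-32400000), which on maps holds BTNL2, an inhibitor of T cell activation, had 35.3%, 27.4%, 81.5% and 68.1%. The next (chr6:32400001-32450000), with HLA-DRA on maps, had 17.5%, 10.2%, 60.6% and 49.2%. In each of these steps the sets lay further apart than the treatments. The last step of class III (chr6:32250001-32300000) differed more in set 1 than in set 2, with 60.2% in DMSO 1 and 36.7% in AC220 1 against 94.1% in DMSO 2 and 91.6% in AC220 2.

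**Figure D5:**
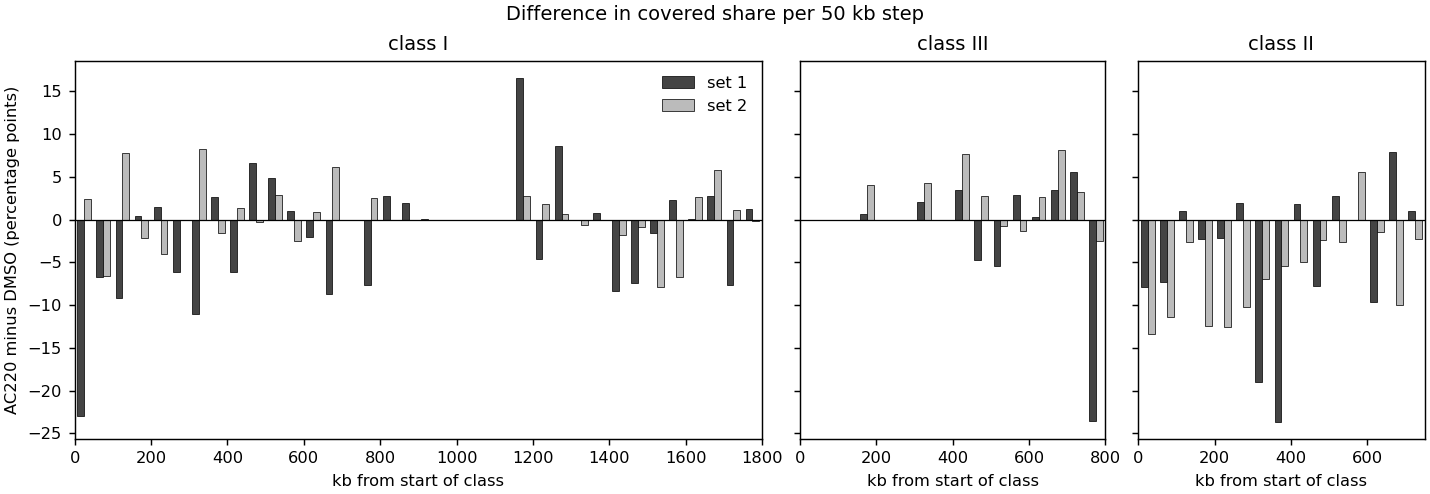
Covered share with AC220 minus that with DMSO in percentage points (y axis) for each 50 kb step along class I, class III and class II (x axis, kb from the start of each class); dark bars are set 1 and light bars set 2. In class II 8 of 15 steps have both bars below 0 and none has both above, while class I bars of the sets often point in opposite directions.

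Among single windows with a covered base in any library, 29 of 114 in class II (25.4%) were lower with AC220 in both sets, beside 19.5% of 214933 such windows in the genome, and 7 (6.14%) were higher, beside 6.99%. In class I 24 of 236 (10.2%) were lower and 18 (7.63%) higher. In class III 4 of 59 (6.78%) were lower and 14 (23.7%) higher. More class III windows were thus higher than lower, while the summed share of the class did not have the same direction in both sets.

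A stricter rule called a window lower with AC220 when both DMSO shares lay 25 points or more above both AC220 shares, and called it higher when both lay as far below. It called 1 MHC window lower and 0 higher, where it called 0.0883% and 0.0171% of all windows, so the MHC was not set apart by this count. Without DMSO 1 it called 29 lower and without AC220 2 it called 43 lower, while without DMSO 2 it called 33 higher and without AC220 1 it called 26 higher. With a library left out the sets were unbalanced. Shares over all windows were not computed for those settings, so these counts have no background beside them. The window called with all 4 libraries lay in class II (chr6:32660001-32665000). It was covered over 45.8% in DMSO 1, 43.8% in DMSO 2, 0 in AC220 1 and 13.1% in AC220 2. That the treatments did not overlap here follows from the rule. The windows on either side differed between treatments in opposite directions in set 1 and set 2. This called window belongs to the class II step beyond HLA-DQB1 given above. A class I window (chr6:29570001-29575000) came next, with 81.0% and 100% in the DMSO libraries and 5.94% and 57.3% in the AC220 libraries, and was not called. When a difference of 25 points was asked for within each set instead, 4 MHC windows were lower (3 in class I and 1 in class II) and 1 was higher, beside 0.724% and 0.105% of all windows. The window that was higher lay in class III (chr6:31910001-31915000), at 29.1% in DMSO 1, 44.7% in DMSO 2, 63.1% in AC220 1 and 73.6% in AC220 2, and on maps falls among complement genes.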

How the data were processed

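H3K27me3 libraries of MOLM14 cells were grouped by the treatment and number in the sample titles. Per the submitters' processing notes the tools included MACS2 2.1 and BWA 0.7.10-r789, with no role or setting; the Drosophila cells were added to normalize peaks, per the series' design text, but whether and how the lists reflect them or the inputs, and the genome build, are not given in the sources used here. Chromosome names and lengths matched GRCh37: the last chromosome 6 peak ended at 171051263 at most, within the length of 171115067 in the band table of circlize 0.4.16 (R 4.3.3). The deposited lists, per library and not pooled, give a fold enrichment (a ratio), a -log10 p-value and -log10 q-value and a score for each peak; none is a count, so depth is unknown. The authors' columns for peak start and end gave the covered share. Which bases could be mapped is not shown by the lists, so an empty window may be unmarked or unmappable.

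Covered shares were computed with Python 3.11.15, numpy 2.4.6, pandas 2.3.3 and scipy 1.17.1, and figures drawn with matplotlib 3.10.9. Treatments were compared on log2 shares by an exact permutation test over 6 assignments of the libraries, classes by an exact sign-flip test over libraries. The window rule was tested on simulated peak lists. Regions named are the 5 longest covered and empty runs per class (ties in order of position), the widest peak per class and library, called windows and the domain with its flanks; steps of 50 kb, the direction counts and the window named as nearly called were added after the data had been seen. Planned values on genes were not computed. Of these runs, 1 empty run of class I is not reported here. The members, lists and rules were chosen with earlier results of these data known. Alternatives were peak q, trimming, class limits, window size, separation, left-out libraries and the replicate block.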

Additional observations from a re-analysis of the deposited data

How the results depend on the processing

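The mean log2 ratios between classes kept their sign under every alternative that gave a value and without any single library (class II to class I from -1.29 to -0.42), although class II was below class III in DMSO 1 with a -log10 q of at least 2. With class limits drawn in by 50 kb the mean of class II to class III was 0.57 (exact sign-flip test, p = 0.25). That p is above the smallest possible, so the sign was not shared by every library there either. With a -log10 q of at least 5, ratios with class II or class III could not be formed, since shares were 0. Treatment ratios near 0 changed sign. The class I log2 ratio was 0.80 and that of the domain 0.83 with a -log10 q of at least 5, and that of class I 0.0196 with DMSO lists trimmed to AC220 length and 0.0679 with every list cut to the shortest; in DMSO 1 the 66.0 kb domain peak (-log10 q 4.56) drops out at the first setting. The class III ratio was -0.15 with a -log10 q of at least 2 and -0.0258 with all lists at the shortest. The class I minus class III ratio was 0.14 and 0.0937 at the same settings, and the class II minus class III ratio 0.0248 at the former. The cause of these sign changes was not tested. Leaving out 1 library gave ranges of -0.29 to 0.24 for class I, -0.95 to 0.43 for class II, -0.42 to 0.43 for class III and -0.00498 to 0.0388 for the domain. The ranges were -0.18 to 0.65 for class I minus class II, -0.19 to 0.13 for class I minus class III and -0.56 to 0.0285 for class II minus class III. Sets of unequal list length were then unbalanced, and whether this gave the ranges was not tested.

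Called windows numbered 1 lower and 0 higher. Lower windows were 0 with a -log10 q of at least 2 or 5, with 10 kb windows or with a separation of 50 points, 5 with a separation of 10 points and 15 with 1 kb windows, which are 5 times as many. Higher windows were 8 with all lists at the shortest, 2 with 10 points and 13 with 1 kb windows. Without 1 library they ran from 1 to 43 lower and from 0 to 33 higher. Shares over all windows were not computed for these settings, so the counts cannot be set against the genome. With the replicate block (a difference within each number) 4 MHC windows were lower and 1 higher, beside 0.724% and 0.105% of all windows. The labels do not say what the number marks. The deviations of same-numbered libraries from their group means had r = 0.66 over the 670 windows and 0.70 over all windows of the genome. With 2 complete pairs the block leaves every mean ratio as it was by arithmetic, so it is no check of the ratios. Its exact test over 2 pairs cannot give a p below 0.5. Depth is unknown, so what it limits could not be stated.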
